A study of Rattus norvegicus with 4 samples.

Results

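Stretches of the rat genome in which strong CD44 peaks crowd together on a high local background are described here, in chromatin immunoprecipitation sequencing (ChIP-seq) of cells from the nucleus pulposus, the gel-like core of the disc between vertebrae. They are chromosome 1 from 180000001 to 182000000 and chromosome 13 from 33000001 to 34000000 on build Rnor_6.0, 3 Mb in all. They were chosen by measured values of the same lists, namely the number of strong peaks per Mb in both lists and the background of the serum peaks, so these values are given below as a description. A peak was a member when its start lay in a stretch. Of 289279 peaks in the serum list, 260 lay in the chromosome 1 stretch and 129 in the chromosome 13 stretch. Of 409937 peaks in the starved list, 374 and 195 did. The 5 Mb on either side of each stretch served for comparison and held 969 and 1086 serum and 1529 and 1703 starved peaks.

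The serum condition was medium with 10% fetal bovine serum, and the starved condition was medium with 0.1%. Each has 1 library precipitated with an anti-CD44 antibody and 1 input library, made from DNA without precipitation. The labels give no strain, animal number or passage for these cells. No replicate exists, so no test between conditions was made. Every difference below describes these libraries, and the intervals are exact 95% intervals that cover counting error only. Neighbouring peaks share fragments and are not independent.

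CD44 is a cell-surface receptor for hyaluronan, the large sugar polymer of cartilage-like matrix, and the nucleus pulposus is rich in such matrix. After the receptor is cut at the membrane, its intracellular tail can enter the nucleus, which is why CD44 has been studied by ChIP. A peak caller judges each place against the input at the same place. In ChIP-seq of many proteins, some stretches gather far more reads than their neighbours, with or without precipitation, for instance repeated sequence with fewer copies in the assembly than in the cells, and analyses often set such stretches aside. Whether repeats lie in these stretches was not tested, since genome sequence and gene models were not used here.

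The background of a peak is the number of stacked fragments that the peak caller allowed for at that place, and the pileup is the number stacked at the peak's highest point. Both are in fragments, and the background is mostly given below as a multiple of the lowest in its list, which was 1.502 fragments for serum peaks and 0.0996 for starved peaks. The deposited fold enrichment is the authors' value for the peak, and equals pileup plus 1 over background plus 1. A peak is called strong at a −log10 q of at least 5, where q is the authors' false discovery rate.

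The high background was not spread evenly over the stretches but came in blocks, and each block held such peaks of both lists. Peaks with a background over 10 times the lowest, counted over both lists and joined where their starts were at most 100 kb apart into runs of at least 5, formed a block of 862 kb on chromosome 1 from 180491793 to 181353865. The next block on chromosome 1, of 119 kb, ran from 181942982 to 182062410 and so crossed the end of the stretch. On chromosome 13 a single block of 346 kb ran from 33474055 to 33820512. These blocks held all 141 of the serum peaks of the chromosome 1 stretch with such a background and 50 of the 51 of chromosome 13. Of the starved peaks of this kind they held 167 of 169 and 59 of 60. The blocks were drawn from these same peaks, so these counts largely follow from the way blocks were formed. Over the whole lists only 0.329% of serum and 0.389% of starved peaks had a background over 10 times the lowest.

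**Figure D1:**
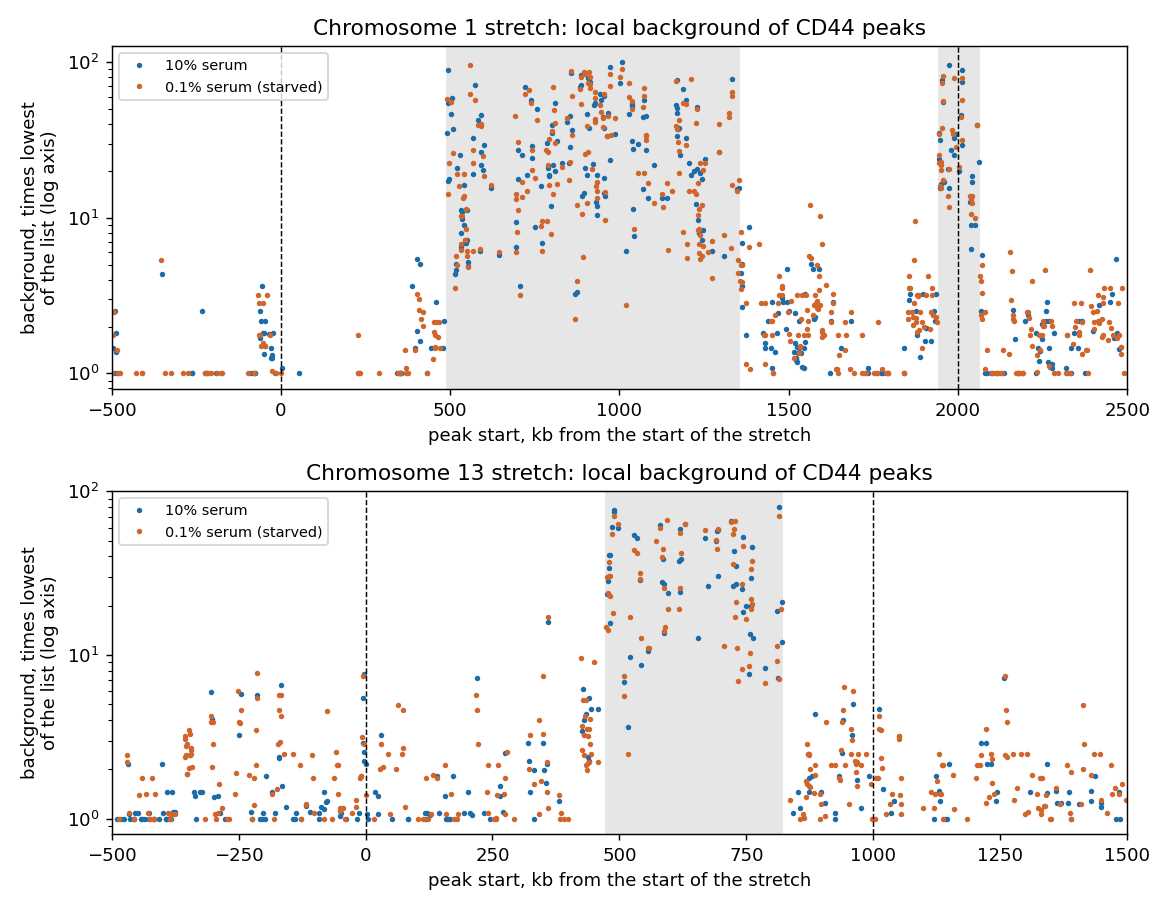
Local background of every serum (blue) and starved (orange) peak, as a multiple of the lowest background of its list on a log axis, against its distance from the start of the stretch in kb. Dashed lines mark the ends of a stretch and grey bands the blocks of 862, 119 and 346 kb, where points of both lists lie mostly above 10.

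Windows of 100 kb showed how unlike the parts of a stretch were. The median background was over 10 times the lowest in 9 of the 20 windows of the chromosome 1 stretch in each list, and in the same 9 windows. On chromosome 13 this held for 4 of 10 windows by the serum peaks and for 3 of these 4 by the starved peaks. The highest serum median on chromosome 1 was 37.7 times the lowest, in the window from 181100001, with 37.6 times in the one from 180900001, and the starved one was 50.4 times, in the window from 181000001. On chromosome 13 both lists had their highest median in the window from 33600001, at 44.3 times for serum peaks and 50.02 times for starved ones.

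Strong peaks lay mostly in the blocks. In the serum list, 31 of the 32 strong peaks of the chromosome 1 stretch and all 15 of the chromosome 13 stretch lay in a block. In the starved list 86 of 93 and 31 of 48 did. Of all peaks of the stretches, strong or not, the blocks held 171 of 260 and 57 of 129 serum peaks. For starved peaks it was 214 of 374 and 68 of 195. Over the whole lists 1.22% of serum peaks and 13.0% of starved peaks were strong, against 12.3% and 24.9% of the peaks of the chromosome 1 stretch and 11.6% and 24.6% of those of chromosome 13. The stretches were picked for these numbers, so nothing is read from them.

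Outside the blocks, the density of strong peaks lay near or below that of the flanks. The parts of the chromosome 1 stretch outside a block held 0.925 strong serum and 6.48 strong starved peaks per Mb, against 1.60 and 18.3 in the flanks. On chromosome 13 the parts outside held 0 serum and 26.0 starved strong peaks per Mb, against 1.80 and 24.6. Inside the blocks the starved values were 93.6 and 89.5 per Mb.

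**Figure D2:**
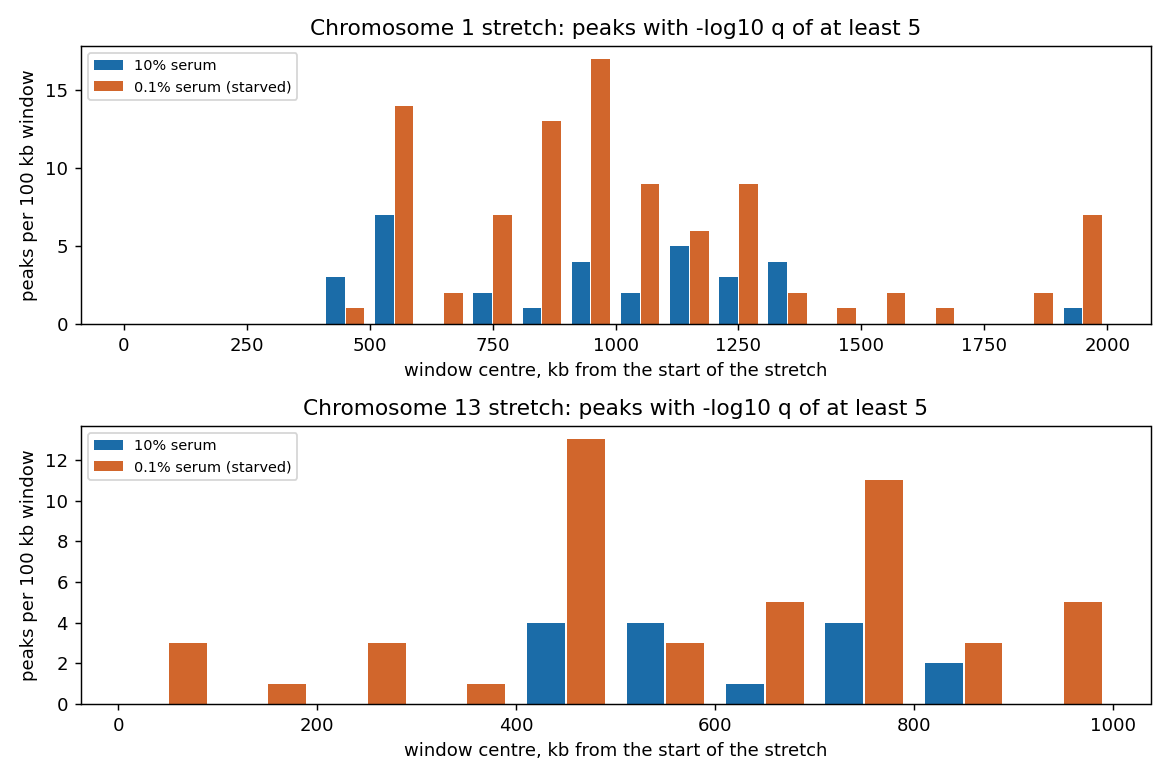
Number of strong peaks, at a −log10 q of 5 or more, in each 100 kb window of the stretches, for the serum (blue) and the starved (orange) list, against the distance of the window's centre from the start of the stretch in kb. The fullest windows hold 17 starved peaks on chromosome 1 and 13 on chromosome 13, and 7 and 4 serum peaks.

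On chromosome 1 the window with most strong peaks differed between the lists. There the serum list had 7 in the window from 180500001, where the starved list had 14. The starved list had 17 in the window from 180900001, where the serum list had 4. On chromosome 13 the serum list had 4 in each of the windows from 33400001, 33500001 and 33700001, with 13, 3 and 11 in the starved list, so the window from 33400001 led in both. The first 400 kb of the chromosome 1 stretch was nearly empty, with 9 serum and 14 starved peaks and none of them strong. No peak of either list lay from 180053293 to 180227234, a gap of 174 kb, while the longest gaps in the flanks of this stretch were 88.1 and 48.8 kb.

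The rule cuts at round positions, and the values beside its limits differed by place. At the end of the chromosome 1 stretch the last serum peak inside had a background of 34.4 times the lowest and the first one outside 19.9 times. The starved values there were 28.4 and 21.3 times. At its start, and at both limits of the chromosome 13 stretch, the nearest peaks on either side had a background of 1.00 to 4.71 times in both lists. The limits therefore ran through a block at 1 of the 4 places.

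The 3 Mb held much of the highest background of the whole genome. The stretches were picked by serum background, so the serum numbers here restate that choice. Of the 376 serum peaks with a background over 20 times the lowest, 139 (37.0%) lay in the stretches, 100 on chromosome 1 and 39 on chromosome 13. Of the 526 such starved peaks, 153 (29.1%) did, with 113 and 40. Such peaks were 0.130% of the serum and 0.128% of the starved list. Ranked by this number, the windows of 1 Mb from 180000001 and 181000001 on chromosome 1 and from 33000001 on chromosome 13 were the first, the next and the third in both lists. They held 59, 41 and 39 such serum and 65, 48 and 40 such starved peaks. The fourth window held 26 in the serum list, on chromosome 16 from 21000001, and 33 in the starved list, on chromosome 1 from 55000001.

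Behind these backgrounds lay well-filled counts of control reads. By default MACS2, the peak caller named in the submitters' processing notes, takes as background the highest of the genome-wide density and the control density in windows of the fragment length, of 1 kb and of 10 kb, scaled to the precipitated library. The settings of the authors' run are not known here, so the tag numbers rest on these defaults. In both lists, 100% of backgrounds were at the lowest value or whole multiples of what 1 control tag adds in such a window. A match was allowed within 0.005 of a step, beside rounding and an allowance for the fitted step that grew with the tag number. A tag is a fragment or read end of the control library, taken here to be the input of the same condition. The fragment length was taken as that of the shortest peak, 272 bp for serum and 217 bp for starved peaks. There, 1 tag added 0.544 fragments to a serum background and 0.0353 to a starved one.

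With these steps the lowest background stood for 10.2 tags per kb in the serum and 13.0 tags per kb in the starved control. The depth of the controls was thus much closer than the backgrounds themselves, which carry the scaling to the precipitated library. By the same scaling there was 1 precipitated fragment for every 1.84 control tags in the serum and for every 28.3 in the starved condition, after any removal of duplicates by the authors. A high background in the starved list rested on about as many control tags as in the serum list, while its pileups rested on few fragments.

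In the stretches, the background over 10 times the lowest was set by the window of the fragment length in 178 of 192 serum peaks (92.7%) and in 211 of 229 starved peaks (92.1%). Where that window set it, the median was 86 tags in 272 bp in the serum list (quartiles 55.3 and 145) and 95 tags in 217 bp in the starved list (quartiles 54.0 and 155). The highest were 279 tags (interval 247 to 314) and 271 tags (interval 240 to 305), the latter under a starved peak from 180558231 to 180558719 with 35 fragments and no serum peak within 4 kb. At the lowest background the same windows stood for 2.76 and 2.82 tags.

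Backgrounds of overlapping peaks were close in the 2 lists once each was taken relative to its lowest. The stretches held 287 overlapping pairs, 198 on chromosome 1 and 89 on chromosome 13. The serum background was 1.00 times the starved one in the median pair (quartiles 0.816 and 1.22), and within 1.5 times of it in either direction in 216 pairs (75.3%). Spearman's rho over the pairs was 0.866 on chromosome 1 and 0.959 on chromosome 13. In the flanks it was 0.788 over 414 pairs, with a median ratio of 0.958 and 70.5% within 1.5 times. Pairs share their place on the genome, and a wider range of backgrounds gives a higher rho, so these values describe the lists. Among the 195 pairs of the stretches with both backgrounds over 10 times the lowest, rho was 0.731.

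**Figure D3:**
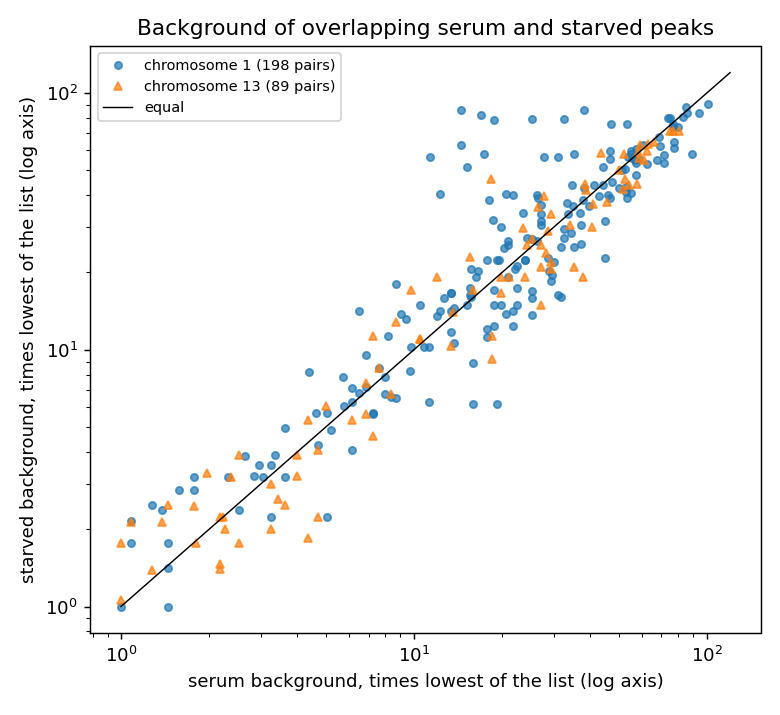
Background of overlapping serum and starved peaks in the stretches, each as a multiple of the lowest of its list, on log axes. Circles are the 198 pairs of chromosome 1 and triangles the 89 pairs of chromosome 13, and they scatter around the line of equal values, at a median ratio of 1.00.

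Peaks of the stretches were found in both conditions far more often than peaks of the flanks. In the serum list 183 of 260 peaks of the chromosome 1 stretch (70.4%, interval 64.4 to 75.9) overlapped a starved peak by at least 1 bp, against 18.5% in its flanks (interval 16.1 to 21.1). On chromosome 13 it was 82 of 129 (63.6%, interval 54.6 to 71.9) against 19.7% (interval 17.4 to 22.2). In the whole serum list it was 15.7%. The intervals of stretch and flanks did not overlap on either chromosome. The stretches were chosen by strong peaks in both lists and by serum background, and sharing differed by background class, as given below. This comparison is thus not independent of the choice.

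The starved list gave the same order. There 176 of 374 peaks of the chromosome 1 stretch (47.1%, interval 41.9 to 52.3) overlapped a serum peak, against 11.8% in the flanks, and 83 of 195 on chromosome 13 (42.6%, interval 35.5 to 49.8), against 12.3%. The whole starved list had 11.0%. The first Mb of the chromosome 1 stretch had higher shares than the second, 81.3% against 60.6% in the serum list and 61.8% against 36.9% in the starved list.

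In the stretches the shared part was larger in each higher class of background. Where the background was at most 2 times the lowest, 19 of 100 serum peaks of the stretches were shared (19.0%, interval 11.8 to 28.1). From 2 to 10 times it was 63 of 97 (64.9%, interval 54.6 to 74.4), and over 10 times it was 183 of 192 (95.3%, interval 91.3 to 97.8). The starved list gave 9.92%, 32.5% and 77.7% for the same classes. Serum peaks of the rest of the genome gave 11.4%, 58.6% and 60.5%, and starved peaks there gave 8.83%, 17.1% and 35.6%. At finer limits the order elsewhere turned, since over 5, 10 and 20 times the lowest the serum share there was 78.1%, 60.5% and 52.7% and the starved share 39.3%, 35.6% and 30.8%. In the stretches these limits gave 92.7%, 95.3% and 97.1% of serum peaks and 70.9%, 77.7% and 81.0% of starved peaks.

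The serum share differed most from the rest of the genome in the highest class. Of the 759 serum peaks elsewhere with a background over 10 times the lowest, 459 were shared (interval 56.9 to 64.0), against 183 of 192 in the stretches. Of the 1367 such starved peaks elsewhere, 487 were (interval 33.1 to 38.2), against 178 of 229 in the stretches (interval 71.8 to 82.9). When 50% of both peaks had to overlap, the serum shares were 56.3% in the stretches and 25.6% elsewhere, and the starved ones 48.9% and 15.9%. From 2 to 10 times, the serum share of both stretches together was near the 67.0% of the flanks (interval 61.2 to 72.5), but the chromosomes lay on opposite sides of it. Chromosome 1 gave 37 of 68 (54.4%, interval 41.9 to 66.5) and chromosome 13 gave 26 of 29 (89.7%, interval 72.6 to 97.8). Nor did the flanks differ in the highest class, with 12 of 13 serum peaks (92.3%, interval 64.0 to 99.8) and 14 of 18 starved peaks (77.8%, interval 52.4 to 93.6). On chromosome 1 most of these belonged to the block that crosses the end of the stretch, namely 10 of 11 serum and 11 of 14 starved peaks.

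**Figure D4:**
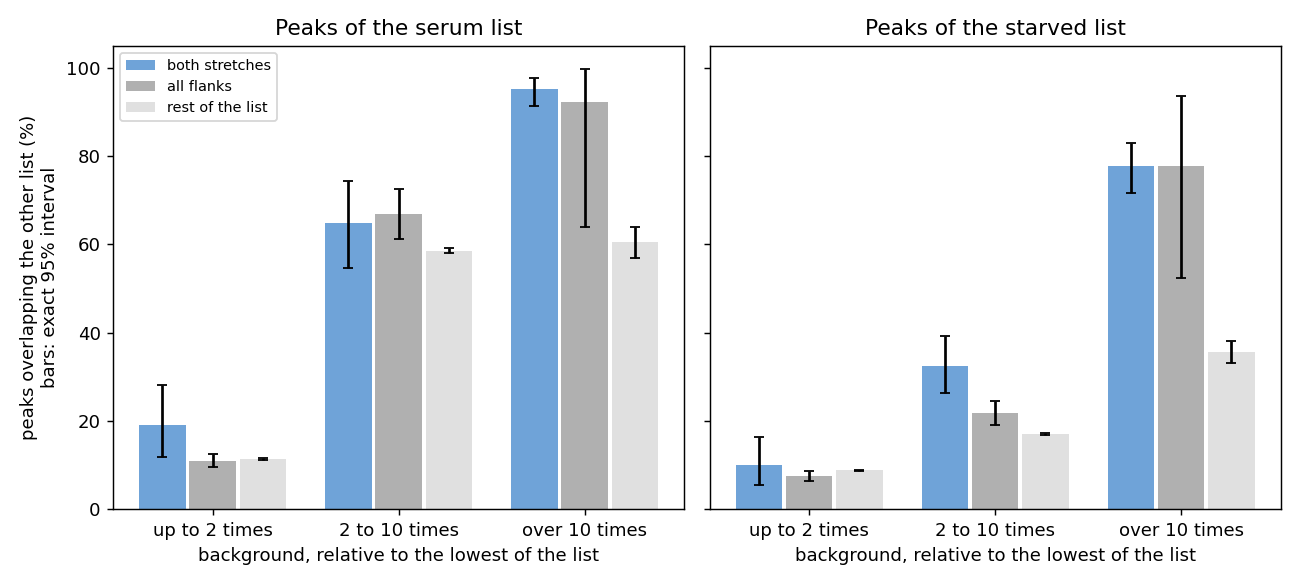
Share of peaks that overlap a peak of the other list by at least 1 bp, in percent, by background class (serum list left, starved list right), with bars for the stretches, their flanks and the rest of the list, which includes the flanks, and exact 95% binomial intervals. In the highest class the stretches reach 95.3% and 77.7% and the flanks 92.3% and 77.8%, against 60.5% and 35.6% in the rest.

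Denser peaks meet more often by position alone, and the density differed. In the blocks of the chromosome 1 stretch starved peaks covered 14.2% of the sequence and serum peaks 10.9%, and on chromosome 13 they covered 12.4% and 9.78%. Outside the blocks starved peaks covered 4.18% and 6.93% and serum peaks 3.57% and 4.89%. How much of the sharing this cover gives was not tested. In the blocks 161 of 171 serum peaks of chromosome 1 (94.2%) and 53 of 57 of chromosome 13 (93.0%) were shared. Outside them 22 of 89 (24.7%, interval 16.2 to 35.0) and 29 of 72 (40.3%, interval 28.9 to 52.5) were.

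Peaks as a whole were denser in the chromosome 1 stretch than in both of its flanks pooled. Strong peaks are part of these counts, and the stretches were chosen by them, so the densities are not independent of the choice. Strong starved peaks made 46.5 per Mb on chromosome 1 against 18.3 in the flanks, and 48 against 24.6 on chromosome 13. Strong serum peaks made 16 against 1.60, and 15 against 1.80. The chromosome 1 stretch had 130 serum peaks per Mb (interval 115 to 147) against 96.9 in its flanks (interval 90.9 to 103). In the starved list it had 187 per Mb (interval 169 to 207) against 153 (interval 145 to 161). The right flank of chromosome 1 had 110.6 serum (interval 102 to 120) and 176.8 starved peaks per Mb (interval 165 to 189). Both of these intervals met those of the stretch. The left flank had 83.2 and 129. On chromosome 13 the intervals met, with 129 serum peaks per Mb (interval 108 to 153) against 109 (interval 102 to 115) and 195 starved peaks (interval 169 to 224) against 170 (interval 162 to 179). The left flank of chromosome 13 was as dense as the stretch, with 138 serum (interval 128 to 149) and 190.2 starved peaks per Mb (interval 178 to 203), and the right flank had 79.2 and 150.4.

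The 5 highest serum pileups of the chromosome 1 stretch lay between 192 and 210 fragments, and all 5 stood on backgrounds of 67.7 to 101 times the lowest. The highest, 210 fragments, was chromosome 1 from 181973154 to 181973627, on 266 control tags. Its pileup was 1.45 times its background (interval 1.21 to 1.75), and it did not overlap a starved peak, although the nearest lay 76 bp away. The second, from 181188012 to 181188489, had 204 fragments and a pileup 2.01 times its background (interval 1.64 to 2.46). These peaks were among the tallest of the list and yet rose little above the control at the same place.

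The third, chromosome 1 from 181008513 to 181008951, had 196 fragments on the highest background of the stretch, 279 tags, and was 1.29 times that background (interval 1.07 to 1.56). A starved peak from 181008507 to 181008955 covered the same place with ends within 10 bp, and had 44 fragments on 256 tags. That pileup was 4.86 times its background (interval 3.45 to 6.72). Such a match of both ends was rare, seen in 2 of the 287 pairs, and 24 pairs (8.36%) matched within 50 bp, against 5.07% in the flanks. The other 2 of the 5 started at 180492593 and 180899603, each with 192 fragments.

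On chromosome 13 the 5 highest serum pileups ran from 164 to 186 fragments. The highest, from 33813441 to 33813989, had 186 fragments on 222 tags, 1.54 times its background (interval 1.26 to 1.88). The starved peak at this place, from 33813392 to 33814438, had 41 fragments on 200 tags, 5.80 times its background (interval 4.04 to 8.15). Another 3 of the 5 lay close together, starting at 33485636, 33488721 and 33489447, at the left edge of the block. The last started at 33719632. All 5 overlapped a starved peak.

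In the starved list the 5 highest pileups were 43 to 45 fragments on chromosome 1 and 36 to 48 on chromosome 13. The highest of chromosome 1, from 180503206 to 180504835, had 45 fragments on 156 tags, 8.16 times its background (interval 5.72 to 11.4). The next had 44 fragments each, the peak at 181008507 above and another from 181167972 to 181169835. The fourth and the fifth had 43 each and started at 180491793 and 180896286. All 5 overlapped a serum peak.

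The highest starved pileup of chromosome 13, 48 fragments from 33496631 to 33496975, was 7.68 times its background (interval 5.46 to 10.6). It overlapped a serum peak from 33496684 to 33497011 with 151 fragments, 1.69 times the background there (interval 1.35 to 2.12). Next came the peaks at 33813392, with 41 fragments, and 33488736, with 38. Peaks at 33485434 and 33724163 had 36 each. The last of these was the only one of the 5 without a serum peak, which lay 1060 bp away at the nearest.

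Among the 100 serum peaks with the highest pileup in the whole list, 50 lay in the stretches, 35 on chromosome 1 and 15 on chromosome 13. In the starved list 13 of 100 did, 8 and 5. A called peak rises above its background, so the serum number is in part set by choosing stretches by serum background. The stretches held 0.134% of all serum and 0.139% of all starved peaks. Among the 500 peaks of highest fold enrichment 0 of either list lay in them, a number too close to those shares to be told from them.

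**Figure D5:**
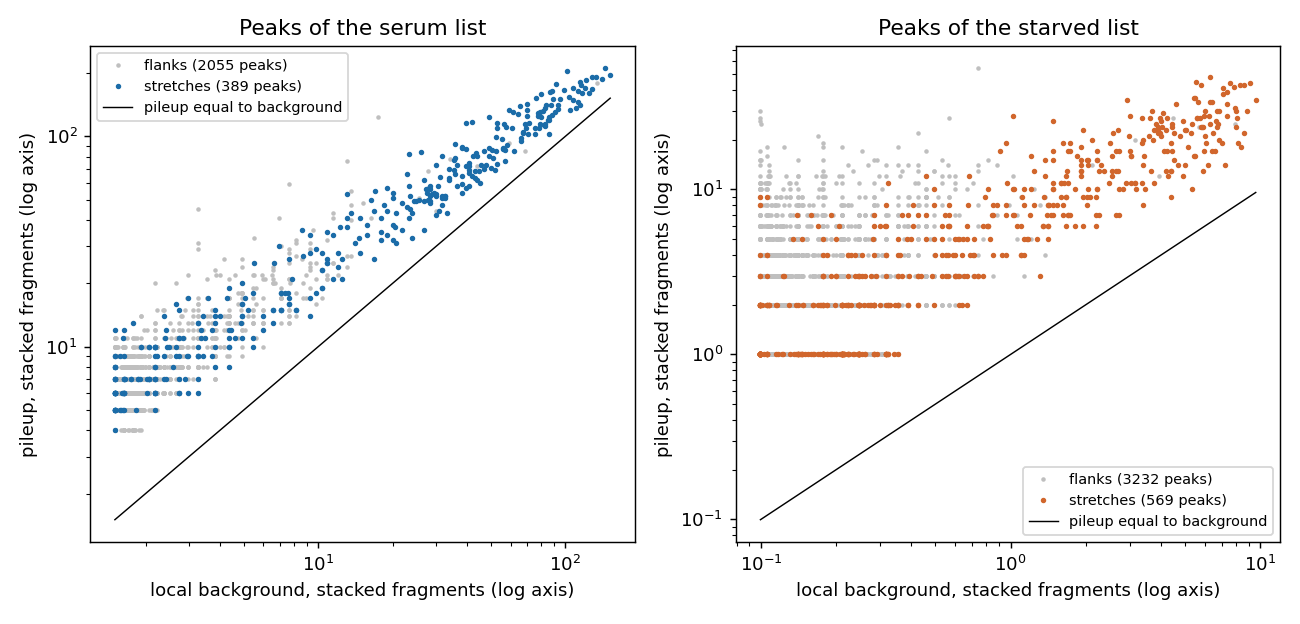
Pileup against local background, both in stacked fragments on log axes (serum list left, starved list right), with coloured points for the stretches, grey points for the flanks and a line where both are equal. Serum peaks of the stretches stay close above the line at high background, and starved peaks lie further above it.

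Serum folds were lower in the stretches than beside them. The median fold enrichment was 2.0004 in the chromosome 1 stretch against 2.69 in its flanks, and 2.27 in the chromosome 13 stretch against 2.74. By background class the serum median in the stretches was 2.80 up to 2 times, 2.35 from 2 to 10 times and 1.67 over 10 times. The rest of the list gave 2.80, 2.35 and 1.91. A high background needs a smaller fold to pass the caller's p-value limit, so the order of these classes is partly set by the calling.

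For starved peaks the direction depended on how the fold was formed. Their median was 3.10 in the chromosome 1 stretch against 2.51 in its flanks, and 2.73 against 2.63 on chromosome 13. As plain pileup over background it was below the flanks, at 6.11 against 10.04 and 7.34 against 11.3. The classes of the stretches gave 1.82, 2.499 and 3.94, and those of the rest of the list 2.60, 2.48 and 3.80. The added 1 in the fold weighs heavily where the background is far below 1 fragment, as in most starved peaks. Without it the starved medians of the stretches were 10.0, 7.25 and 4.99, and so in the serum order of 3.85, 2.65 and 1.69.

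The peaks with the highest fold were of another kind than those with the highest pileup. The 3 highest serum folds of chromosome 1 were 5.04 from 181524511, 4.94 from 180003477 and 4.64 from 181372811, with pileups of 13, 12 and 16 fragments. On chromosome 13 they were 5.19 from 33159593, 4.55 from 33332140 and 3.93 from 33438403, with pileups of 12, 17 and 17. All 6 had a background of at most 2.38 times the lowest. Of these peaks, 4 had no starved counterpart.

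The 3 highest starved folds of chromosome 1 included 2 of the 5 starved peaks of the stretches whose −log10 q reached 20. The highest was 14.3, from 180533672 to 180535449, with 28 fragments on 29 tags, 27.3 times the background (interval 15.7 to 47.6). It overlapped a pair of serum peaks, from 180533713 with 50 fragments and from 180535216 with 28, which were 3.06 (interval 1.91 to 4.99) and 1.91 (interval 1.08 to 3.36) times their backgrounds. The next fold, 10.2 from 181872540, had no serum peak within 2 kb, the nearest being 2098 bp away. The third, 9.15 from 181196860 to 181197260, had 35 fragments, 11.9 times the background (interval 7.80 to 17.9), over a serum peak of 123 fragments at 2.51 times (interval 1.90 to 3.34).

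On chromosome 13 the highest starved fold was 10.9, from 33474055 to 33474429, with 26 fragments on 42 tags. It was 17.5 times its background (interval 10.3 to 29.2), it opened the block, and the nearest serum peak was 488 bp away. The next were 9.45 from 33449143, with 17 fragments, and 9.09 from 33123044, with 9 fragments at the lowest background. Neither overlapped a serum peak. The starved peaks of highest fold were thus a mixture of shared and unshared ones. Among the starved peaks of the stretches with a −log10 q of at least 20, only the one from 33474055 did not overlap a serum peak.

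The share of peaks in the stretches with a −log10 q of 20 or more lay within counting error of that in the whole lists. None of the 389 serum peaks reached it (interval up to 0.944%), against 0.109% of the whole serum list, and the highest values were 17.7 on chromosome 1, from 181293862 to 181295124, and 16.7 on chromosome 13, from 33584009 to 33584943. Of the starved peaks 3 reached 20 on chromosome 1 and 2 on chromosome 13, together 0.879% (interval 0.286 to 2.04), against 0.727% of the whole starved list and 0.774% of the flanks. No pair had both peaks at that limit, while 4 pairs of the flanks did. At a q of at most 0.05, 55.0% and 49.6% of the serum peaks of the stretches remained, against 19.9% of the whole list. All serum flanks together gave 22.2%. In the starved list 63.4% and 57.9% (interval of the latter 50.7 to 64.96) remained, against 52.0% of the whole list. The starved flanks gave 48.2% on chromosome 1 and 53.7% on chromosome 13. The starved share of chromosome 13 thus lay within counting error of its flanks and of the whole list. Strong peaks pass this limit too, and the stretches were chosen by them, so these shares are not independent of the choice.

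Strong serum peaks of the stretches were nearly all shared and strong starved peaks in part. On chromosome 1, 31 of 32 strong serum peaks (96.9%, interval 83.8 to 99.9) overlapped a starved peak, and 22 of them a strong one. On chromosome 13, 14 of 15 did (interval 68.1 to 99.8), 10 of them with a strong one. Of the strong starved peaks 72 of 93 (77.4%, interval 67.6 to 85.4) and 32 of 48 (66.7%, interval 51.6 to 79.6) overlapped a serum peak. Shares among strong peaks of the flanks or whole lists are not given here. The stretches were chosen for strong peaks in both lists, so these shares describe the stretches only. Strong serum peaks had pileups of 25 to 204 fragments on chromosome 1 and 35 to 177 on chromosome 13. Strong starved peaks had 5 to 45 and 5 to 48.

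Within overlapping pairs the starved pileup stood further above its background than the serum pileup did. In the stretches the median was 5.85 times the background in the starved peak (quartiles 4.37 and 7.69) and 1.91 times in the serum peak (quartiles 1.57 and 2.55). The starved value was higher in 282 of 287 pairs (98.3%). The flanks gave 410 of 414 (99.0%), with medians of 14.2 and 3.33, so this difference was not particular to the stretches. A pileup is the highest point of a peak, and with few fragments it lies further above the mean by counting error. That part was not tested.

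Peaks were longer in the stretches, and the longer ones lay mostly inside the blocks. The serum median was 466 bp on chromosome 1 (quartiles 353 and 617) against 357 bp in its flanks (quartiles 282 and 476), and 450 bp on chromosome 13 against 357 bp. The starved median was 334 bp (quartiles 218 and 558) against 231 bp (quartiles 217 and 288), and 301 bp against 235 bp. Starved flank lengths lay near the shortest possible here, 217 bp, and their median pileup was 2 fragments, against 6 and 3 in the stretches. The quartile ranges of stretch and flanks overlapped throughout. Inside the blocks the serum medians were 499 bp on chromosome 1 and 493 bp on chromosome 13, and the starved ones 482 and 546.5 bp. Outside the blocks they were 374 and 366.5 bp for serum and 217 and 243 bp for starved peaks, near the flanks. The stretches were chosen by strong peaks and serum background, so the lengths are not independent of that choice.

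The longest serum peaks were 2046 bp on chromosome 1, from 181166547 to 181168592, and 3100 bp on chromosome 13, from 33587631 to 33590730. Starved peaks reached 3340 bp, from 181037240 to 181040579, and 2554 bp, from 33957201 to 33959754. The last of these had only 6 fragments at its highest point and lay outside the block. Serum peaks of at least 1 kb numbered 17 (6.54%, interval 3.85 to 10.3) and 5 (3.88%, interval 1.27 to 8.81), against 1.10% of the whole list and 1.27% of the flanks. Starved ones numbered 25 (6.68%, interval 4.37 to 9.71) and 16 (8.21%, interval 4.76 to 13.0), against 1.83% of the whole list. In the left flank of chromosome 13 it was 5.36% of starved peaks (interval 4.02 to 6.99), whose interval met that of the stretch, and in all flanks 2.72%. Together, peaks covered 6.94% of the chromosome 1 stretch for serum and 8.80% for starved peaks, against 4.002% and 4.69% of its flanks. On chromosome 13 it was 6.58% and 8.82% against 4.499% and 5.87%, with 5.79% and 7.27% in the left flank.

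The chromosomes differed in how much of a stretch was block. Blocks took 919 kb of the 2 Mb on chromosome 1 and 346 kb of the 1 Mb on chromosome 13. The median background of all serum peaks was 13.4 times the lowest on chromosome 1 (quartiles 2.63 and 32.0) and 4.34 times on chromosome 13 (quartiles 1.45 and 26.4), against 1.24 and 1.09 times in the flanks. The starved medians were 6.95 times (quartiles 2.36 and 26.4) and 2.84 times (quartiles 1.69 and 15.8), against 1.46 and 1.42 times. Inside the blocks the chromosomes lay closer, at 23.9 and 28.2 times in the serum and 21.6 and 25.5 times in the starved list. The lower medians of the chromosome 13 stretch came with its larger part outside the block. Blocks were drawn from high-background peaks, so a high median inside them is set by their definition.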

How the data were processed

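ChIP-seq with an antibody against CD44 was done on rat nucleus pulposus cells in 10% and 0.1% serum, 1 precipitated and 1 input library each. FastQC, STAR 2.5.3a, MACS2 2.1.1 and build Rnor_6.0 are named per the submitters' processing notes. Options, duplicate handling, scaling and the control library were not given in the sources used here. Input DNA of the same condition was taken as control. Each list was placed with a library by the prefix of its peak names. Each row deposited by the authors gives a fold enrichment (a ratio), a p-value, a q-value, a pileup signal and a length. Read totals were not used. Depth is seen only in the lowest background, 1.502 fragments for serum and 0.0996 for starved peaks, and in the control tags.

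From these values the background was computed as (pileup + 1) / fold − 1. The step that 1 control tag adds was fitted, and each background was matched to a whole number of tags. Interval methods were exact Poisson for densities and tags, exact Clopper-Pearson for shares, and the exact binomial interval of pileup against tags for their ratio. Overlap and tag recovery were tested on simulated data. No p-value was computed, since each condition has 1 precipitated library. Peaks named are the 5 highest pileups, the 3 highest folds and the longest peak of each stretch and list, those with a −log10 q of at least 20, and the 3 strongest pairs of each stretch. The peaks of highest background or q were added after their values were seen. The stretches and what was compared in them were chosen with earlier results of these data known, and the blocks, background classes and tag recovery after seeing the data. Tools were Python 3.11.15, numpy 2.4.6, pandas 2.3.3, scipy 1.17.1 and matplotlib 3.10.9. Alternatives were other q limits, overlaps, flank widths and background limits.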

Additional observations from a re-analysis of the deposited data

How the results depend on the processing

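No paired analysis was possible because there is only 1 precipitated library per condition, and for the same reason no library could be left out. Of 50 alternatives, 21 stayed within the interval of the value in the report or within 1.5 times of a count or ratio, and 29 did not. The medians of strong peaks alone, for which no interval is given here, were counted among the 29. Flanks of 2 or 10 Mb changed no density or background ratio by more than 1.5 times. Values are given for serum then starved on chromosome 1, then serum and starved on chromosome 13. At a q of at most 0.05 the peaks per Mb were 71.5, 118.5, 64.0 and 113.0. With strong set at a −log10 q of 10 or more, strong peaks per Mb were 4, 15.5, 6 and 13.0. When 50% of both peaks had to overlap, the shared part was 40.0%, 27.8%, 34.1% and 22.6%, and within 500 bp it was 80.4%, 59.9%, 73.6% and 53.8%. Among strong peaks only, in both lists, the starved share was 21.5% and 20.8%, where the serum list holds 32 and 15 such peaks. Strong peaks alone had a median background of 24.6, 37.3, 35.1 and 19.2 times the lowest and a median length of 613, 590, 641 and 638 bp. The 3 alternatives for peaks with a background over 10 times the lowest were chosen after seeing the data. With 50% of both peaks the shares in the stretches were 56.3% and 48.9%, and over 5 times the lowest the starved share was 70.9%. Under each of them the share in the stretches was above that in the rest of the list. Depth limits the starved pileups, the lowest of which was 1 fragment.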
